A study of Rattus norvegicus with 12 samples.

Results

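The genes described here encode enzymes and a pump that handle foreign chemicals, outside cytochrome P450 family 1: cytochromes P450 of families CYP2, CYP3 and CYP4, flavin monooxygenases (FMO), class 3 aldehyde dehydrogenases (ALDH3), glutathione S-transferases (GST), UDP-glucuronosyltransferases (UGT), sulfotransferases (SULT) and the efflux transporter P-glycoprotein (Abcb1). Members were the rows of the deposited table with a symbol of one of these families whose signal averaged 1 or more across the 12 libraries. Of 19230 rows, 104 matched the symbols and 73 passed the minimum, namely 23 CYP2, 3 CYP3, 9 CYP4, 6 FMO, 4 ALDH3, 13 GST, 2 UGT, 9 SULT and 4 ABCB1 rows. The 31 rows below the minimum are not described further. Just outside it lay Gstm5 (0.752), Sult1b1 (0.878) and Cyp2b3 (0.890), and just inside it the merged row that opens with Cyp3a2 (1.14), Ugt2b35 (1.15) and Cyp4f4 (1.2). Among the members, 14 rows name more than 1 gene, so their values cannot be given to 1 gene of the row. The symbol rule also took 2 rows of Abcb10, one of them merged with Nup133, and Abcb11, which are not drug efflux pumps.

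RNA was sequenced from Sprague-Dawley rats in 4 groups of 3 libraries. One lung group was of wild-type (WT) rats in normoxia (labelled day 0). The other lung groups were taken on day 4 of SuHx, the first from WT rats and the second from rats with the genotype label Ahr-KO. The fourth group was of endothelial cells (ECs) of WT rats in normoxia, labelled day 4 although their columns read day 0. SuHx joins the VEGF receptor inhibitor SU5416 (Sugen) with low oxygen, and rats so treated serve as a model for pulmonary hypertension. Ahr encodes the aryl hydrocarbon receptor, a transcription factor that ligands switch on. The drug and low oxygen were always given together and no Ahr-KO lung in normoxia was analysed here, so neither part of the treatment nor an interaction of genotype and treatment can be read from these groups. The sources used here do not say how the Ahr-KO rats were made or how the ECs were isolated. Libraries are named by group and by the suffix 0, 1 or 2 of their column.

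Foreign compounds are commonly cleared in steps: P450s and flavin monooxygenases put an oxygen on the molecule, transferases then couple it to glutathione, glucuronic acid or sulfate, and efflux pumps carry it out of the cell. In the lung much of the P450 and flavin monooxygenase content is known from club cells, the secretory cells of the small airways, and from alveolar type 2 cells, while P-glycoprotein also lines vessels. Several UGT1A, GST and ALDH3 genes are textbook targets of the aryl hydrocarbon receptor or of NRF2, the regulator of antioxidant genes.

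Promoters of the members that the comparisons below turn on are shown with 3 sequence motifs in view. GCGTG is the core of the site bound by the aryl hydrocarbon receptor, with TNGCGTG as a longer form that contains it, and TGACNNNGC is the core of the antioxidant response element bound by NRF2. Each was searched on both strands in the 250 bases before the start of the gene, in RefSeq sequence of the GRCr8 assembly, another build than the one the signals were made with. Of 94 member gene names, 77 matched a promoter there, 2 of them through a synonym. Capitals mark the matches, and a match on the opposite strand of GCGTG reads CACGC. Gstp1 (chr1:210769706-210769955, minus strand) and 3 genes of the merged Ugt1a row are shown because these rows were higher in WT SuHx than in both other lung groups and, for the Ugt1a genes, as examples that hold a match: Ugt1a7c (chr9:96187132-96187381, plus strand), Ugt1a6 (chr9:96194768-96195017, plus strand) and Ugt1a3 (chr9:96227884-96228133, plus strand). Fmo1 (chr13:77747667-77747916, minus strand) and Fmo2 (chr13:77777535-77777784, minus strand) are shown because they carried much of the fall with SuHx.
Gstp1: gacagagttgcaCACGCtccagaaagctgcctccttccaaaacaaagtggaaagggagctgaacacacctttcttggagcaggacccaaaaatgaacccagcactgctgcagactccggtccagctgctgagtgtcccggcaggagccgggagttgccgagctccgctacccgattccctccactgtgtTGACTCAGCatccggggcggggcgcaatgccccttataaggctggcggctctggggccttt
Ugt1a7c: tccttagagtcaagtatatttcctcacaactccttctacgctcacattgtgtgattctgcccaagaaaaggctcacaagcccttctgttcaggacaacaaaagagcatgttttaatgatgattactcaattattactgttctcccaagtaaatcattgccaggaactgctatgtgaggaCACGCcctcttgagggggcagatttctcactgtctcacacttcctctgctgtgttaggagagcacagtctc
Ugt1a6: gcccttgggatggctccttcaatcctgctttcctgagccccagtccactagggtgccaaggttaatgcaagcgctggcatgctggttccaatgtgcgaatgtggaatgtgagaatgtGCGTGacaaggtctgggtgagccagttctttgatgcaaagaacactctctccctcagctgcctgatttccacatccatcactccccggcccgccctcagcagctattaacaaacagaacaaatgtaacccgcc
Ugt1a3: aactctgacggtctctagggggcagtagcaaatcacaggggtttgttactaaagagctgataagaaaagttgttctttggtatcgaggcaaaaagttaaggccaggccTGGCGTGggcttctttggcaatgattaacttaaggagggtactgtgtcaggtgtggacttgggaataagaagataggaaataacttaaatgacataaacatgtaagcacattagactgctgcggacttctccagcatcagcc
Fmo1: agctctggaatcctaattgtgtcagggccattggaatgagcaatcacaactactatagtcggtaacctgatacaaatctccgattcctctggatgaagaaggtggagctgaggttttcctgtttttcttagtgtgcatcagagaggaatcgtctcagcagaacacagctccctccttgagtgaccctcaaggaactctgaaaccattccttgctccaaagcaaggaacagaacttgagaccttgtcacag
Fmo2: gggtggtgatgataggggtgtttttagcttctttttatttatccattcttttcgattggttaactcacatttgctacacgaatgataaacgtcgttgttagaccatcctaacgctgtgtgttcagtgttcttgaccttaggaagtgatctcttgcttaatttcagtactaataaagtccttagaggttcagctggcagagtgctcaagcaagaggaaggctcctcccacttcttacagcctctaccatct

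In Gstp1, TGACNNNGC was matched 61 to 53 bases before the start, and GCGTG on the opposite strand 238 to 234 bases before it. GCGTG lay 133 to 129 bases before the start of Ugt1a6, 71 to 67 bases before that of Ugt1a7c on the opposite strand, and 140 to 136 bases before that of Ugt1a3, there within the longer form TNGCGTG. Of the 7 promoters matched for genes of the Ugt1a row, 4 held GCGTG, the other being Ugt1a8, while those of Ugt1a1, Ugt1a2 and Ugt1a9 held none of the 3 motifs. The windows of Fmo1 and Fmo2 held none of the 3 motifs. Over all members, GCGTG stood in 20 of 75 distinct promoters (26.7%) against 25.9% of the 33469 promoters of the RefSeq table. TNGCGTG stood in 2.67% against 4.09%, and TGACNNNGC in 9.33% against 10.1%. A match says only that the letters are there. Aldh3a1 and Cyp2ab1 are named without a promoter.

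The unit throughout is the deposited signal, in effect estimated reads over a factor of their library (a reading from the values), so it grows with transcript length and levels are compared between libraries of 1 gene only. Library totals lay between 20.6 M and 27.1 M. Rows were tested with limma on log2(signal + 1) over the whole table. A row was called higher or lower at a Benjamini-Hochberg adjusted p under 0.05, and each log2 fold change stands with its standard error (SE) after the ± sign. Whether the 3 libraries of a group are separate animals is not stated, so p-values measure the spread between these samples. Ahr mRNA differed by 0.03 ± 0.26 (log2 fold change, adjusted p = 0.966 with limma) between lungs labelled Ahr-KO and WT SuHx lungs, and the deleted part is not known here, so this value may check nothing. Ahrr, the receptor's repressor and target, was at 4.64, 7.97 and 6.08 in the lungs labelled Ahr-KO against 1466, 2107 and 1480.4 in WT SuHx. In bulk tissue, fewer cells of a type and less RNA per cell cannot be told apart.

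The first comparison, of WT lungs on day 4 of SuHx with those in normoxia, asked what had changed with the treatment. Most members that changed fell: limma called 15 of the 73 rows lower (20.5%, where 6.39% of all 15234 tested rows were lower) and 3 higher (4.11%, where 7.08% of all rows were higher). In either direction 24.7% of members and 13.5% of all rows were called. The median log2 fold change was -0.12 over the members and -0.0446 over all rows. Over the 53 members with a mean of at least 10 it was -0.47, with 17 rows above 0 and 36 below. The median over all rows was not taken at that minimum. By family, 6 of 23 CYP2, 1 of 3 CYP3, 2 of 9 CYP4, 3 of 6 FMO, 1 of 13 GST, 1 of 9 SULT and 1 of 4 ABCB1 rows fell, and none of the ALDH3 and UGT rows did (0 of 4 and 0 of 2, with 0 also at an unadjusted p under 0.05). The rises were 1 CYP2, 1 GST and 1 UGT row, and without WT SuHx 1 members called higher numbered 8. Over all rows, 1079 were called higher with that library and 1082 without it.

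**Figure D1:**
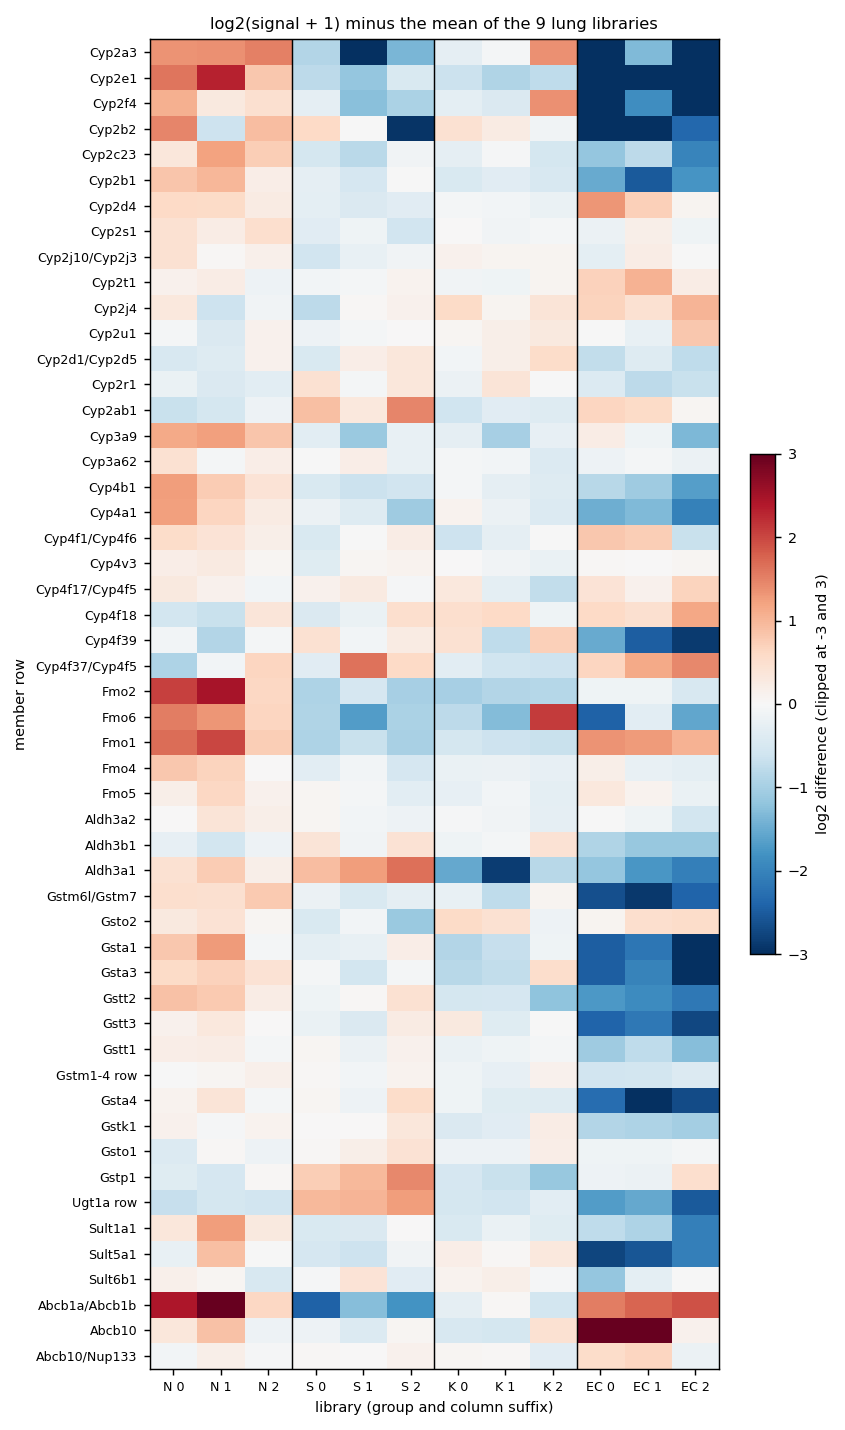
Heat map of log2(signal + 1) minus the mean of the 9 lung libraries, for 52 member rows with a mean of at least 10 over the 12 libraries (rows) in the normoxia (N), WT SuHx (S) and Ahr-KO SuHx (K) lungs and the ECs (columns, by suffix), with colour limits at -3 and 3. Rows such as Fmo1 and Fmo2 are red in the normoxia lungs and blue in both SuHx groups, while the Ugt1a row and Gstp1 are red in WT SuHx only among the lungs.

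Among the flavin monooxygenases, 3 of 6 rows fell. The enzymes of this family oxidise nitrogen and sulfur atoms of drugs and amines, and Fmo2 is a form known from the lung of several mammals. Fmo1 was at 16614, 20896 and 8773 in the normoxia lungs and at 2739.6, 3289.6 and 2669.7 in the WT SuHx lungs. The groups were far apart, with normoxia 2 the lowest of the normoxia lungs. Fmo1 fell 5.02-fold (log2 fold change -2.33 ± 0.26, adjusted p = 0.000839). Fmo2 went from 18389, 24626 and 6824 to 2329, 3135 and 2230.3. Normoxia 2 was again the lowest normoxia library and still lay above every SuHx library. Fmo2 fell 5.74-fold (-2.52 ± 0.38, adjusted p = 0.00363). Fmo4 was at 372, 342 and 215 in normoxia and at 172, 203 and 150.4 in WT SuHx, so its groups nearly touched, and its fall of 1.73-fold was small (-0.79 ± 0.21, adjusted p = 0.0405). That call was lost when any of normoxia 0 (adjusted p = 0.14), normoxia 1 (0.123), WT SuHx 0 (0.108), WT SuHx 2 (0.123), Ahr-KO 0 (0.0617) or Ahr-KO 1 (0.0657) was left out, with limma. Fmo6 (-2.34 ± 0.77) and Fmo5 (-0.42 ± 0.17), named here after their values were seen, were not called.

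Among the CYP2 rows, Cyp2a3 and Cyp2e1 fell most. Cyp2a3 belongs to the P450s that activate nitrosamines in the airways, and Cyp2e1 oxidises ethanol and small solvents. Cyp2a3 was at 1033, 1051 and 1143 in normoxia and at 219, 48.2 and 154 in WT SuHx. The normoxia lungs were close together and the SuHx lungs spread widely below them. Its fall was 9.04-fold (log2 fold change -3.18 ± 0.55, adjusted p = 0.00664), and the log2 fold change was -2.54 without WT SuHx 1, the lowest library. Cyp2e1 went from 779.6, 1273 and 450.2 to 149, 113 and 185, without overlap. It fell 5.21-fold (-2.38 ± 0.33, adjusted p = 0.00239). Cyp2f4, a P450 of club cells that is named after its values were seen, was at 1951, 1146 and 1305 in normoxia and at 780.4, 391 and 481 in WT SuHx and was not called (-1.44 ± 0.45, adjusted p = 0.0645).

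Cyp2b1, a lung P450 of broad substrate range, was at 15914, 17798 and 10213 in normoxia and at 7387, 6290.2 and 8815 in WT SuHx. It lay lower in each SuHx lung, by 1.92-fold (log2 fold change -0.94 ± 0.20, adjusted p = 0.0171). Cyp2c23, a P450 known for epoxidising arachidonic acid, was at 118, 216 and 153 against 63.4, 52.0 and 85.6 and fell 2.38-fold (-1.25 ± 0.28, adjusted p = 0.0192). Both calls rested on single libraries: limma's adjusted p for Cyp2b1 was 0.0665 without normoxia 0, 0.0539 without normoxia 1 and 0.0613 without WT SuHx 0, and that for Cyp2c23 was 0.0616 without normoxia 1 and 0.0668 without WT SuHx 0. Cyp2d4 and Cyp2s1 fell by less but with little spread. Cyp2d4 was at 639, 627 and 501 against 347, 314 and 336 (1.76-fold lower, adjusted p = 0.00354 with limma). Cyp2s1, a P450 of surface epithelia, was at 1024, 864 and 1049 against 584, 672 and 496 (1.68-fold lower, adjusted p = 0.00663 with limma).

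Of the CYP3 and CYP4 rows, Cyp3a9, Cyp4a1 and Cyp4b1 fell. Cyp4b1, which oxidises fatty acids and some protoxins, is a P450 known from lung. It was at 17575, 12433 and 9732 in normoxia and at 5356, 4688 and 4922 in WT SuHx. The 3 SuHx lungs agreed closely, and all lay below the lowest normoxia lung. Cyp4b1 fell 2.58-fold (log2 fold change -1.37 ± 0.19, adjusted p = 0.00242). Cyp4a1, a fatty acid hydroxylase, was at 381, 253 and 193 against 143, 123 and 76.0 and fell 2.39-fold (-1.26 ± 0.30, adjusted p = 0.0263). Its adjusted p with limma was 0.0932 without normoxia 0, 0.0646 without normoxia 1 and 0.0802 without WT SuHx 2. Cyp3a9, of the family that handles many drugs and steroids, was at 117, 124 and 94.3 against 41.6, 23.7 and 44.7. Its groups were well apart, and it fell 3.08-fold (-1.62 ± 0.31, adjusted p = 0.0114).

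The merged row of Abcb1a and Abcb1b, the 2 rodent genes for P-glycoprotein, had the largest fall of the members. It was at 2936, 5149 and 831 in the normoxia lungs and at 101, 226 and 156 in the WT SuHx lungs. The normoxia lungs differed widely, with normoxia 2 lowest, yet none came near the SuHx lungs. The row fell 15.1-fold (log2 fold change -3.92 ± 0.57, adjusted p = 0.00283), and the log2 fold change was -4.66 without normoxia 2 and -4.68 without all 3 lung libraries of suffix 2. No other ABCB1 row was called. A pair of conjugating enzymes also fell. Sult1a1, which sulfates phenols, was at 2881, 5402 and 2777 against 1638, 1674 and 2278, and the merged row of Gstm6l and Gstm7 was at 329, 320.5 and 399 against 203, 167 and 192. In both rows the groups did not overlap, and the falls were 1.90-fold (-0.93 ± 0.24, adjusted p = 0.0341) for Sult1a1 and 1.85-fold (-0.89 ± 0.21, adjusted p = 0.0262) for the Gstm6l row. Leaving out normoxia 0 (adjusted p = 0.0508), WT SuHx 0 (0.109), WT SuHx 1 (0.0696) or Ahr-KO 1 (0.0527) ended the call of Sult1a1, and leaving out any 1 of the 6 normoxia and WT SuHx lungs ended that of the Gstm6l row (0.0542 to 0.069), with limma.

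The rises were in conjugation and in 1 little-studied P450. The merged Ugt1a row holds Ugt1a1, Ugt1a2, Ugt1a3, Ugt1a5, Ugt1a6, Ugt1a7c, Ugt1a8 and Ugt1a9, and also Mroh2a. The Ugt1a genes share part of their coding sequence, and their enzymes couple phenols and bilirubin to glucuronic acid. This row was at 549.8, 609.9 and 592 in normoxia and at 1753, 1788 and 2113 in WT SuHx. Both groups were tight and far apart, and the row rose 3.22-fold (log2 fold change 1.69 ± 0.11, adjusted p = 7.45e-05). Gstp1, the pi class glutathione transferase, was at 2108, 1919 and 2788 against 4521, 5298 and 7362. Every SuHx lung lay above every normoxia lung, with a rise of 2.5-fold (1.32 ± 0.22, adjusted p = 0.00567). Cyp2ab1 was low throughout, at 16.7, 18.8 and 24.5 against 52.0, 34.4 and 76.7, and rose 2.54-fold (1.34 ± 0.33, adjusted p = 0.0269). The Cyp2ab1 call was lost without normoxia 0 (adjusted p = 0.0947), normoxia 1 (0.0736), WT SuHx 0 (0.084) or WT SuHx 2 (0.086), with limma.

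**Figure D2:**
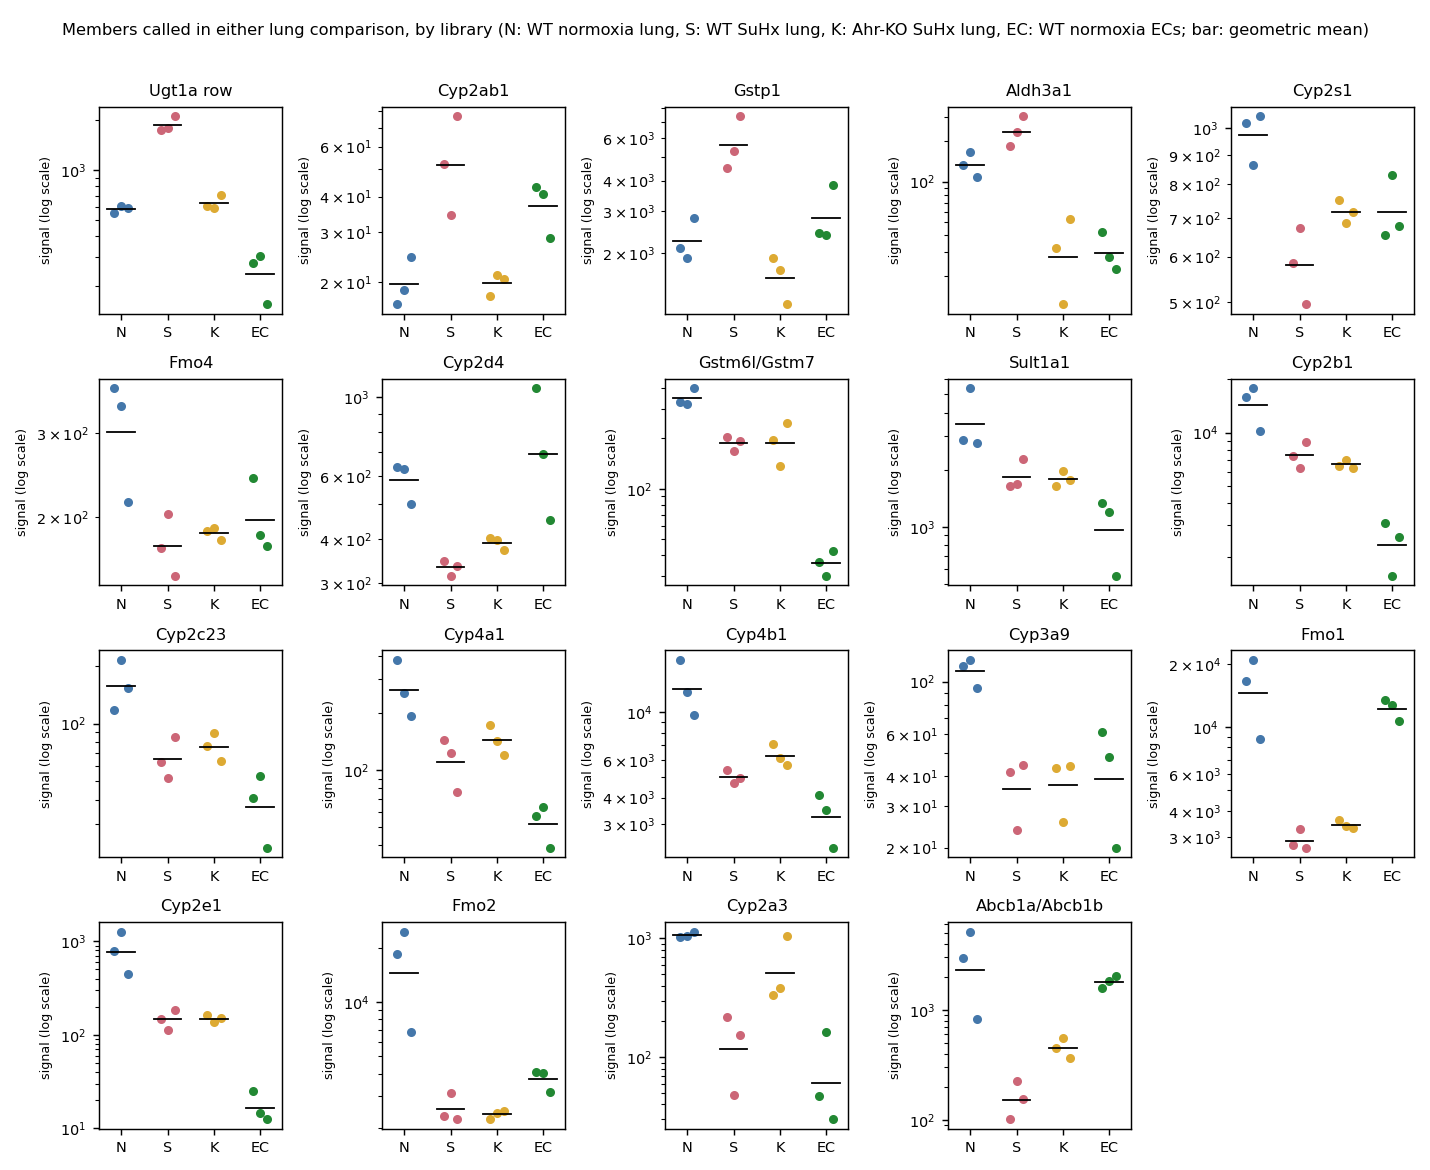
Signal on a log axis in each library of the 19 member rows called in WT SuHx against normoxia or in Ahr-KO SuHx against WT SuHx; N, S, K and EC are normoxia lung, WT SuHx lung, Ahr-KO SuHx lung and ECs, points are libraries and bars geometric means. The Ugt1a row and Gstp1 are high in the 3 WT SuHx lungs alone among the lungs, whereas Fmo1, Fmo2, Cyp2e1 and Cyp3a9 are low in all 6 SuHx lungs.

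The remaining 55 rows were not called, and 18 of all 73 members had a call. Among the 13 GST rows, 9 had log2 fold changes below 0 and 4 above. The abundant row of Gstm1, Gstm2, Gstm3l and Gstm4, named after its values were seen, was at 5458, 5803 and 6123 in normoxia and 5694, 5244 and 5975 in WT SuHx, and its log2 fold change was -0.04 ± 0.11 (adjusted p = 0.828 with limma). Of the 4 ALDH3 rows, which oxidise aldehydes, 3 lay above 0 and none was called. Aldh3a1 was at 133, 164 and 108 in normoxia and at 183, 231 and 303 in WT SuHx, without overlap, yet the difference missed the threshold (0.81 ± 0.45, adjusted p = 0.244). In the order of genes on the GRCr8 chromosomes, Fmo4, Fmo1, Fmo2 and Fmo6 lie in 1 cluster, and Fmo4, Fmo1 and Fmo2 fell. Cyp4a1 and Cyp4b1 are near neighbours and both fell. Other members that fell lie beside rows that were not called. Cyp3a9 lies beside Cyp3a62 (-0.21), and Cyp2d4 beside the merged row of Cyp2d1 and Cyp2d5 (0.26), Cyp2d3 (0.42) and Cyp2d2 (1.16). Cyp2d3 and Cyp2d2 are low rows led by WT SuHx 2. Cyp2a3 lies near Cyp2f4 (-1.44), the low Cyp2a1 row (2.04) and Cyp2t1 (-0.08), none of them called. The Gstm6l row lies near Gstm6 (-1.46), a low row, and the Gstm1 row (-0.04), neither called. Cyp2s1 and Cyp2b1 both fell beside Cyp2b2, which was not called (-1.37 ± 0.85). Gstp1 lies near Aldh3b1 and Aldh3b2, neither of which was called.

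Summed over the 73 members, the signal took 0.49%, 0.538% and 0.33% of the library total in the normoxia lungs and 0.229%, 0.228% and 0.263% in the WT SuHx lungs. Fmo1, Fmo2, Cyp2b1 and Cyp4b1 together made 64.2%, 61.5% and 50.8% of that sum in normoxia against 36.6%, 36.0% and 33.2% in WT SuHx. The lungs labelled Ahr-KO gave 0.218%, 0.212% and 0.232% of their totals to the members, and the ECs 0.211%, 0.194% and 0.167%. Normoxia 2 stood closest to the SuHx lungs in both measures. It was also the lowest of the 3 normoxia lungs in 11 of the 15 rows that fell. The same count was not made over all rows that fell, so it is not a result about the members. Normoxia 2 carried more cardiac muscle signal, with the 10 markers summed to 12777 against 1636 and 845 in the other normoxia lungs. The 15 falls were 16 without normoxia 2, while over all rows 973 falls became 1149. Of the 15, 9 (the Abcb1 row, Cyp2a3, Cyp2d4, Cyp2e1, Cyp2s1, Cyp3a9, Cyp4b1, Fmo1 and Fmo2) passed in every alternative run. Among the rises, Gstp1 and the Ugt1a row did so too.

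Some markers of airway and vessel cells were lower beside these falls, and those of other cells overlapped or were higher. The 8 club cell markers summed to 153274, 156899 and 174303 in normoxia and to 110611, 116646 and 127187 in WT SuHx, with Bpifa1 at 0 in the latter. Scgb1a1, the defining club cell marker, was not called (log2 fold change -0.51 ± 0.27, adjusted p = 0.227). The 12 ciliated cell markers summed to 44795 to 59227 in normoxia and 23168 to 29305 in WT SuHx, with Rsph4a at 0 there. The 10 endothelial markers lay at 108032 to 113579 in normoxia and 86887 to 91350.4 in WT SuHx. Fibroblast markers (6) were at 16129.9 to 28154 in normoxia and 39093 to 47278 in WT SuHx, and smooth muscle markers (5) at 18499 to 26120.4 and 39637 to 55767. Erythroid markers (5) were at 695 to 1258 in normoxia and 4423 to 7398 in WT SuHx. Alveolar type 2 markers overlapped, at 385828 to 584133 and 276521 to 421789, as did the 5 epithelial markers, at 21398 to 28003 and 20456 to 25021. The part of cell makeup in the member changes was not tested.

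WT SuHx 2 stood apart in a group of low members. In 10 rows typical of liver, namely Cyp2c13, Cyp2c22, Cyp2c6v1, Cyp2c7, Cyp2d2, Cyp2d3, Ugt2b35 and the merged rows that open with Cyp2a1, Cyp3a2 and Sult1e1, the summed signal was 158.6 in WT SuHx 2. It was 16.1 and 6.12 in the other WT SuHx lungs and at most 7.16 in the other 6 lungs. The largest was Cyp2c7, at 36.5 in that library and at most 5.68 in any other lung. These rows were picked after their values were seen, and most passed the minimum through that library. The hepatocyte marker Alb was at 1830.4 in WT SuHx 2 and at most 197 in the other 8 lungs, and the 8 hepatocyte markers summed to 8702 there against 2719 to 5735 in those lungs. In the ECs, where Alb, Ttr and Fgb were at 0, the same sum was 6233 to 11754. None of the 10 rows was called, and without WT SuHx 2 the members gave 2 rises and 12 falls. Over all rows, 1079 rises and 973 falls became 697 and 418 without that library. Its part in the other results was not tested.

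**Figure D3:**
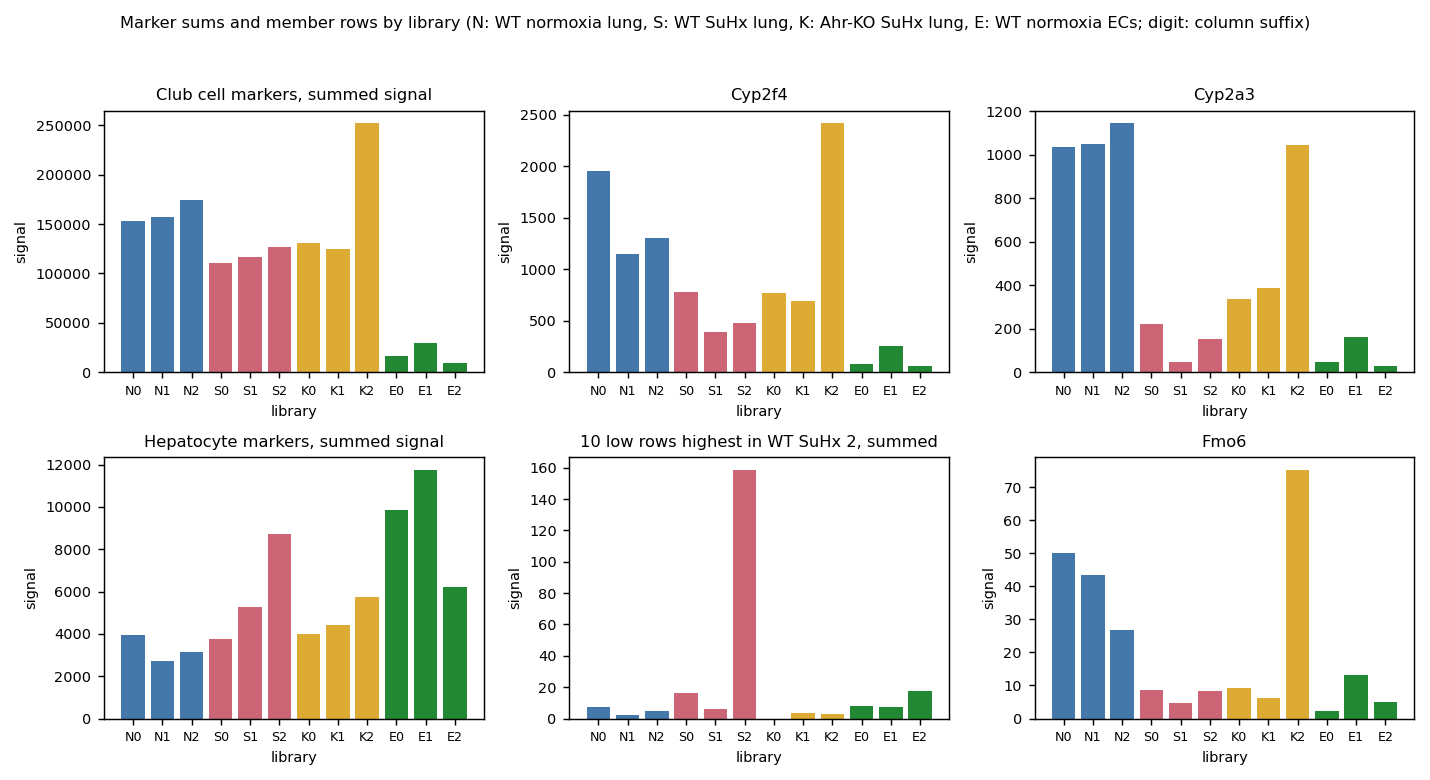
Bars of summed marker signal (club cell and hepatocyte lists), of 3 member rows and of the sum of 10 low liver-type rows in each of the 12 libraries (N, S and K are normoxia, WT SuHx and Ahr-KO SuHx lungs, E the ECs, digits the suffix). Ahr-KO 2 leads the club cell sum, Cyp2f4 and Fmo6, and WT SuHx 2 holds 158.6 of the liver-type rows.

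The lungs labelled Ahr-KO were set against WT SuHx lungs to find which members differed with the labelled genotype under the same treatment. All 3 rows called were lower in the lungs labelled Ahr-KO, namely the Ugt1a row, Gstp1 and Aldh3a1. That is 3 of 73 members lower (4.11%) where 0.302% of all tested rows were lower and 0.499% were called in either direction. Members called higher by limma numbered 0 (0.197% of all rows), with 7 higher and 10 lower at an unadjusted p under 0.05. Of the 53 members with a mean of at least 10, 6 were higher and 6 lower at that p. Their median log2 fold change was -0.04. The share of all rows at that unadjusted p was not counted. The median log2 fold change was -0.10 over the members and 0.0206 over all rows. Macrophage markers summed to 7212 to 9006 in the lungs labelled Ahr-KO against 10534 to 12979 in WT SuHx. Alveolar type 1 markers were lower too (85698 to 91202 against 94700 to 120357). Higher were ciliated (30887 to 35415 against 23168 to 29305), fibroblast (51213 to 66350 against 39093 to 47278) and cardiac markers (5815 to 27467 against 2632 to 3496). The other marker lists overlapped. The part of cell makeup here was not tested.

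The Ugt1a row was at 611, 593 and 709.7 in the lungs labelled Ahr-KO, against 1753, 1788 and 2113 in WT SuHx. Of these 3 lungs, 1 lay inside the range of the normoxia lungs (549.8 to 609.9) and the others above it. The row was 2.95-fold lower than in WT SuHx (log2 fold change -1.56 ± 0.11, adjusted p = 0.000207). Gstp1 was at 1909, 1701 and 1232, against 4521, 5298 and 7362 in WT SuHx. All 3 lay below the lowest normoxia lung (1919), and Gstp1 was 3.53-fold lower than in WT SuHx (-1.82 ± 0.22, adjusted p = 0.00758). Against normoxia the same libraries gave 0.13 ± 0.11 (adjusted p = 0.511) for the Ugt1a row and -0.50 ± 0.22 (adjusted p = 0.189) for Gstp1, neither of them called. Each comparison shares libraries with the others, so these values are not independent of the rise in WT SuHx.

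Aldh3a1, which oxidises aromatic and medium-chain aldehydes, was at 32.5, 12.4 and 53.2 in the lungs labelled Ahr-KO against 183, 231 and 303 in WT SuHx. It was the one member called lower than both WT groups, since normoxia was at 133, 164 and 108. It was 8.10-fold lower than in WT SuHx (log2 fold change -3.02 ± 0.45, adjusted p = 0.0255) and 4.63-fold lower than in normoxia (-2.21 ± 0.45, adjusted p = 0.0152). The first call was lost in 7 of 19 alternatives, among them those without normoxia 0 (adjusted p = 0.0518), WT SuHx 0 (0.0788), WT SuHx 1 (0.0842), WT SuHx 2 (0.106) and Ahr-KO 0 (0.0865), while the log2 fold change stayed between -3.47 and -2.46. The second was lost without normoxia 0 (0.0531) or normoxia 1 (0.0543), with limma, and its log2 fold change was -2.81 without normoxia 2 and Ahr-KO 2.

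**Figure D4:**
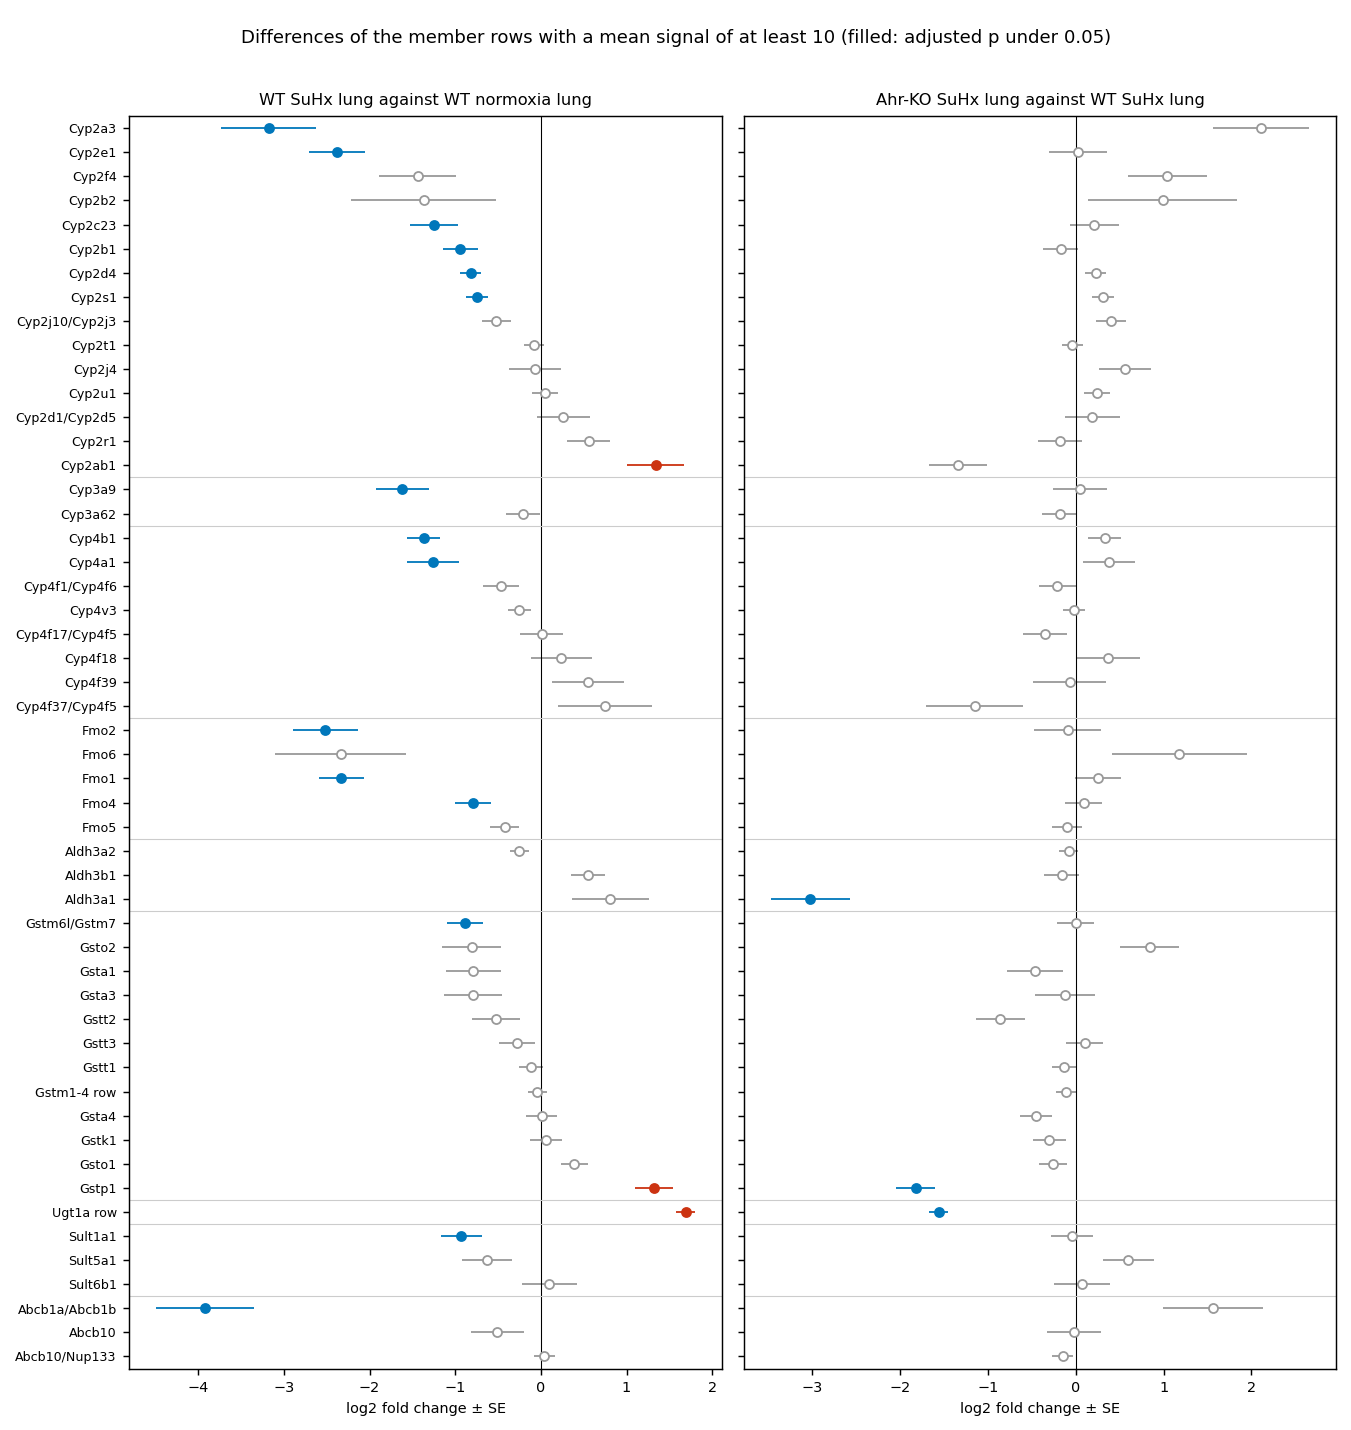
Log2 fold change ± SE (x axis) of 52 member rows with a mean of at least 10 (y axis, grouped by family), for WT SuHx against normoxia lung (left) and Ahr-KO SuHx against WT SuHx lung (right); filled points passed an adjusted p under 0.05 with limma, blue lower and red higher. The left panel has 15 blue and 3 red points, the right panel 3 blue ones.

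Of the 18 rows called in WT SuHx against normoxia, 7 were not called between the genotypes although their libraries did not overlap. In this comparison 21.9% of all tested rows and 19 of the 73 members did not overlap, so the count is not a result about the members. The 18 rows were called against the same WT SuHx lungs. Cyp2ab1 was at 17.8, 21.3 and 20.5 in the lungs labelled Ahr-KO against 52.0, 34.4 and 76.7 in WT SuHx (log2 fold change -1.34 ± 0.33, adjusted p = 0.135). The Abcb1 row was at 449, 559 and 369 against 101, 226 and 156, between WT SuHx and normoxia (1.56 ± 0.57, adjusted p = 0.28). Cyp2a3 was at 335, 385 and 1045 against 219, 48.2 and 154 (2.11 ± 0.55, adjusted p = 0.156, and 1.47 without WT SuHx 1). All 3 lungs labelled Ahr-KO were above the WT SuHx lungs in the last 2 rows, but the differences missed the threshold. Smaller differences of this kind were those of Cyp4b1 (0.33 ± 0.19, adjusted p = 0.466), Cyp2s1 (0.31 ± 0.13, adjusted p = 0.346), Fmo1 (0.25 ± 0.26, adjusted p = 0.683) and Cyp2d4 (0.23 ± 0.12, adjusted p = 0.438) with limma. In the other rows that fell with SuHx, the lungs labelled Ahr-KO overlapped the WT SuHx lungs, as in Fmo2 (2243, 2431 and 2472 against 2329, 3135 and 2230.3) and Cyp2e1 (163, 137 and 149.7 against 149, 113 and 185).

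Ahr-KO 2 stood above the other lungs of its group in some members, picked here for that difference. Cyp2f4 was at 2416 there against 768 and 695, Cyp2a3 at 1045 against 335 and 385, Gsta3 at 143 against 55.7 and 59.3, Fmo6 at 75.2 against 9.29 and 6.20, and Sult1c3 at 26.6 against 1.55 and 1.77. The club cell markers summed to 252121 in that library against 131209 and 125027, and the cardiac markers to 27467 against 7439 and 5815. Other lung P450s did not stand apart in that library. Cyp4b1 was at 5668 there against 7087 and 6102, Cyp2b1 at 6349.9 against 6491 and 7029, and Cyp2s1 at 717 against 752 and 685. The 3 rows called lower between the genotypes were also called without Ahr-KO 2. The part of this library's makeup in the values of Cyp2f4, Cyp2a3, Gsta3, Fmo6 and Sult1c3 was not tested.

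Against WT normoxia lung, which shares libraries with both comparisons above, the lungs labelled Ahr-KO had 14 members lower (19.2%, where 3.80% of all rows were lower) and 0 higher (5.95% of all rows) with limma, and in either direction 9.75% of all rows were called. The 14 became 7 without normoxia 0, 6 without normoxia 1, 9 without Ahr-KO 0 and 7 without Ahr-KO 1. Over all rows, the 579 called lower became 217, 272, 341 and 207 in these runs. At an unadjusted p under 0.05 the members gave 3 higher and 24 lower. The median log2 fold change was -0.32 over the members and -0.0327 over all rows. Of the 15 rows that fell in WT SuHx, 11 were called here and 4 were not (Cyp2a3, Cyp2s1, Cyp4a1 and Fmo4), and these counts rest on the same normoxia lungs. Ciliated cell markers summed to 30887 to 35415 in the lungs labelled Ahr-KO against 44795 to 59227 in normoxia, fibroblast markers to 51213 to 66350 against 16129.9 to 28154, and smooth muscle markers to 37791 to 54972 against 18499 to 26120.4. Alveolar type 2 markers were lower too (324785 to 350461 against 385828 to 584133). So were alveolar type 1 (85698 to 91202 against 99911 to 130860) and endothelial markers (79889 to 99742 against 108032 to 113579). Club cell markers (125027 to 252121 against 153274 to 174303) and epithelial markers overlapped, and erythroid and hepatocyte markers were higher. The part of cell makeup in the member falls was not tested. Fmo1 was at 3626, 3401 and 3299.8 and 4.21-fold lower than in normoxia (log2 fold change -2.08 ± 0.26, adjusted p = 0.00128). Fmo2 was 6.12-fold lower (-2.61 ± 0.38, adjusted p = 0.00315) and Cyp2e1 5.09-fold (-2.35 ± 0.33, adjusted p = 0.00254). In WT SuHx, against the same normoxia lungs, the log2 fold changes were -2.52 for Fmo2 and -2.38 for Cyp2e1.

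The Abcb1 row was 5.13-fold lower than in normoxia in the lungs labelled Ahr-KO by limma (log2 fold change -2.36 ± 0.57, adjusted p = 0.0308), a call lost in 8 of 19 alternatives. It was lost without normoxia 0 (0.105), normoxia 1 (0.0812), Ahr-KO 0 (0.0761), Ahr-KO 1 (0.0724) or Ahr-KO 2 (0.0967), and without normoxia 2 the log2 fold change was -3.10. Cyp3a9, at 43.3, 25.7 and 44.1, was 2.97-fold lower (adjusted p = 0.0142 with limma), lost without normoxia 0 (0.0557), normoxia 1 (0.0504) or Ahr-KO 1 (0.055). Cyp2b1, at 6491, 7029 and 6349.9, was 2.15-fold lower (adjusted p = 0.00903) and Cyp4b1, at 7087, 6102 and 5668, 2.05-fold lower (adjusted p = 0.00964), both kept without any single library. These 2, Cyp2e1, Fmo1 and Fmo2 were the 5 rows that passed in every alternative run.

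Smaller falls from normoxia were those of Cyp2c23, Cyp2d4, Sult1a1 and the Gstm6l row. Cyp2c23, at 76.6, 89.4 and 63.8, was 2.06-fold lower (adjusted p = 0.0459 with limma), a call lost in 14 of 19 alternatives. Of the 9 single lung libraries, 7 ended its call when left out, all but normoxia 0 and WT SuHx 2. Cyp2d4, at 403, 397 and 372, was 1.5-fold lower (adjusted p = 0.0185), lost without normoxia 0 (0.079), normoxia 1 (0.0661), Ahr-KO 1 (0.0652) or Ahr-KO 2 (0.0583). Sult1a1, at 1638, 1976 and 1772, was 1.96-fold lower (adjusted p = 0.0349), lost without WT SuHx 0 (0.0532), Ahr-KO 0 (0.0978), Ahr-KO 1 (0.0783) or Ahr-KO 2 (0.0935). The Gstm6l row, at 196, 136 and 245, was 1.85-fold lower (adjusted p = 0.0308), lost when any library but WT SuHx 1, WT SuHx 2 and Ahr-KO 2 was left out (0.051 to 0.0884).

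Among the lung comparisons Gsta1 and Gstt2 were called only in this one, and they are named after their values were seen. Both encode glutathione transferases, of the alpha and theta classes. Gsta1 was at 2338, 3251 and 1292 in normoxia, 1085, 1139 and 1532 in WT SuHx, and 728, 821 and 1215 in the lungs labelled Ahr-KO. The last group lay below all normoxia lungs and overlapped WT SuHx, and Gsta1 was 2.38-fold lower than in normoxia (adjusted p = 0.0375 with limma). That call was lost without normoxia 0 (0.119), normoxia 1 (0.105), WT SuHx 0 (0.0571), WT SuHx 1 (0.0536), Ahr-KO 0 (0.108) or Ahr-KO 1 (0.117). Gstt2 was at 129.7, 120.2 and 82.1 in normoxia, 63.4, 71.1 and 95.3 in WT SuHx, and 48.0, 48.7 and 29.6 in the lungs labelled Ahr-KO, all 3 below every WT lung. It was 2.60-fold lower than in normoxia (adjusted p = 0.0161 with limma), lost without normoxia 0 (0.0685) or normoxia 1 (0.0552), and was not called against WT SuHx (log2 fold change -0.86 ± 0.28, adjusted p = 0.238).

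ECs of WT rats in normoxia were set against whole normoxia lung to see how members differ between them. Of 62 member rows tested, limma called 29 lower in the ECs (46.8%, where 30.1% of all 15186 tested rows were lower) and 4 higher (6.45%, where 26.1% were higher), and 56.2% of all rows were called in either direction. Members higher numbered 1 without normoxia 0, EC 0 or EC 1 and 0 without normoxia 1. Over all rows, the 3969 called higher became 3425, 3476, 3362 and 3678 in these runs. The other 11 members were below the minimum in these 6 libraries. The median log2 fold change was -0.59 over the members and -0.0527 over all rows. The GST rows had the most calls of lower signal, 10 of 13, and a family median of -2.06. The normoxia lungs were those of the comparisons above, so these values share them.

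Cyp2e1 differed most, at 25.0, 14.5 and 12.5 in the ECs against 779.6, 1273 and 450.2 in lung, or 43.6-fold lower (log2 fold change -5.45 ± 0.42, adjusted p = 7.76e-05). Cyp2a3 was at 46.7, 161 and 30.0 (17.3-fold lower, -4.11 ± 0.55, adjusted p = 0.000722). Cyp2b2, close kin of Cyp2b1, was at 2.28, 0 and 4.99 against 82.7, 18.8 and 56.8 (16.9-fold lower, -4.08 ± 0.80, adjusted p = 0.004), and its fold depends on the pseudocount (-5.39 with 0.1) because the ECs are near 0. In each of these rows every EC library lay below every lung library. Cyp2f4 was at 82.0, 258 and 59.9 (13.1-fold lower, -3.71 ± 0.51, adjusted p = 0.00086). The alpha class transferase Gsta3 was at 17.1, 24.1 and 4.99 against 149, 162 and 133 (10.6-fold lower, adjusted p = 0.00129 with limma), and Gsta1 was at 238, 294 and 119.8 (10.5-fold lower, adjusted p = 0.000514). For all 6 rows the call was kept without any single library. Without EC 1 the log2 fold change was -4.81 for Cyp2a3, -4.33 for Cyp2f4 and -3.37 for Cyp2b2. It was -2.80 for Gsta3 without EC 2 and -4.69 for Cyp2b2 without normoxia 1, and with quantile normalization it was -3.46 for Cyp2b2 and -2.75 for Gsta3.

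The 4 rows higher in ECs differed by 1.49-fold to 2.04-fold, and each of the 4 calls was lost when some single library was left out. Cyp4f18, a fatty acid hydroxylase of leukocytes that acts on leukotriene B4, was at 93.4, 85.6 and 139.8 against 41.4, 38.4 and 79.8 (2.04-fold, adjusted p = 0.039 with limma). Cyp2ab1 was at 43.3, 41.0 and 28.7 against 16.7, 18.8 and 24.5 (1.84-fold, adjusted p = 0.0435). Cyp2j4, of the family that makes epoxides of arachidonic acid, was at 237, 204 and 305 against 186, 96.3 and 137 (1.81-fold, adjusted p = 0.0329). Cyp2t1 was at 1219.6, 1561 and 889 against 833, 890.3 and 688, with EC 2 inside the lung range (1.49-fold, adjusted p = 0.0487). Leaving out 1 library ended the call of Cyp4f18 without any library but normoxia 2 (0.0565 to 0.117), of Cyp2ab1 without normoxia 0 (0.126), normoxia 1 (0.0935), EC 0 (0.13) or EC 1 (0.12), of Cyp2j4 without normoxia 1 (0.0781), normoxia 2 (0.0725), EC 0 (0.0741) or EC 2 (0.0908), and of Cyp2t1 without any library but EC 2 (0.0596 to 0.141), with limma. With quantile normalization the log2 fold changes were 1.71 for Cyp4f18 and 1.61 for Cyp2ab1. The 5 leukocyte markers summed to 10939 to 17235 in the ECs and 4758 to 6731 in lung, and their part in these values was not tested.

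**Figure D5:**
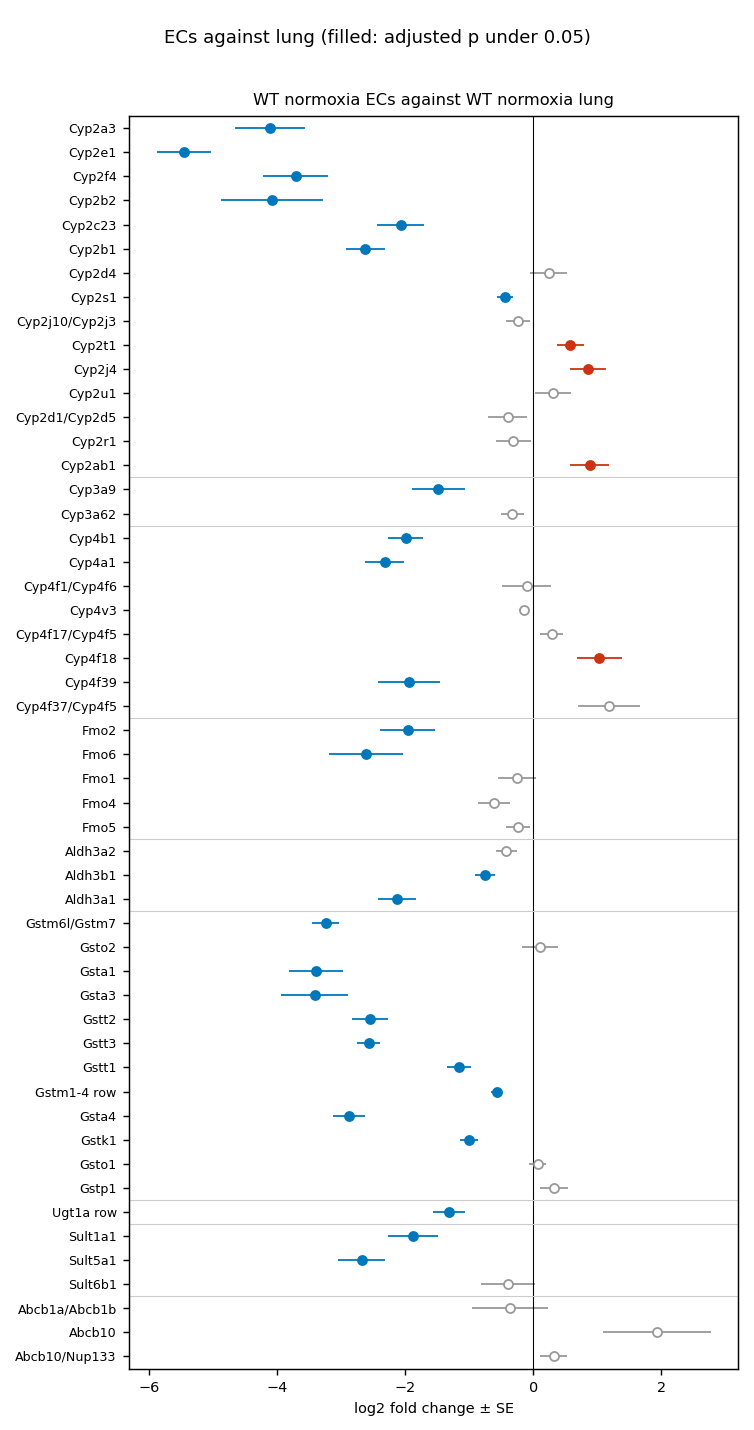
Log2 fold change ± SE (x axis) of WT normoxia ECs against WT normoxia lung for 52 member rows with a mean of at least 10 (y axis, grouped by family); filled points passed an adjusted p under 0.05 with limma, blue lower and red higher. Most GST rows are blue, Fmo1 and the Abcb1 row lie near 0 without a call, and the 4 red rows are all P450s.

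Some members that fell with SuHx in lung were not called between ECs and lung. Fmo1 was at 13397, 12686 and 10733 in the ECs, inside the range of the normoxia lungs, and was not called (log2 fold change -0.25 ± 0.30, adjusted p = 0.517 with limma). The Abcb1 row was at 1586, 1829 and 2038, also inside that range (-0.36 ± 0.59, adjusted p = 0.628). Cyp2d4 spread widely, at 1062, 692 and 451 (0.24 ± 0.29, adjusted p = 0.513). Fmo2, in contrast, was at 4086, 4055 and 3168, 3.89-fold below lung (-1.96 ± 0.43, adjusted p = 0.00703). Of the rows that rose with SuHx, Gstp1 was at 2423, 2389.6 and 3822 in the ECs and was not called (0.32 ± 0.22, adjusted p = 0.239), and the Ugt1a row was at 276, 304 and 155, 2.47-fold lower (adjusted p = 0.00373). Aldh3a1 was at 42.1, 27.7 and 22.5, or 4.37-fold lower (adjusted p = 0.000994). Abcb10, a mitochondrial transporter named after its values were seen, was at 5183, 6544 and 629, so EC 2 stood far below the others, inside the range of the lung libraries, and the row was not called (1.93 ± 0.84, adjusted p = 0.0864).

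The EC label was checked on endothelial markers: the 10 endothelial markers summed to 298860 to 365045 in the ECs against 108032 to 113579 in normoxia lung. Signal of other lung cells was also there. The club cell markers summed to 16612, 29308 and 9709 in EC 0, 1 and 2, and Cyp2f4 (82.0, 258 and 59.9) and Cyp2a3 (46.7, 161 and 30.0) were likewise highest in EC 1 and lowest in EC 2. Gsta1 (238, 294 and 119.8), Gsta3 (17.1, 24.1 and 4.99) and the Ugt1a row (276, 304 and 155) had that order too. Other members had other orders, such as Cyp2e1 (25.0, 14.5 and 12.5) and Cyp2b1 (3101, 1554 and 2594). Alveolar type 2 markers shared the order of the club cell markers, at 186614, 209392 and 84664 in EC 0, 1 and 2. In lung they lay at 385828 to 584133. The 5 epithelial markers lay at 8230.0 to 12040.2 in the ECs against 21398 to 28003 in lung. The part of such signal in the EC values of the members was not tested.

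Among genes that work with the members, from a list of 95 rows with 94 tested, limma called 8 higher and 10 lower in WT SuHx against normoxia, where 7.08% of all rows were higher and 6.39% lower. None of the 8 P450 redox partners, which hand electrons to the P450s, was called (0 higher and 0 lower, and at an unadjusted p under 0.05 1 higher and 0 lower). The 2 with the highest means were Cyb5r3 (log2 fold change 0.16 ± 0.14) and Pgrmc1 (0.08 ± 0.12). Of 23 hydrolases, reductases and other oxidases, 3 rose and 5 fell. Nqo1, the quinone reductase, was at 1268, 1377 and 1150.3 in normoxia, 8410.2, 12102 and 12169 in WT SuHx, and 738, 739 and 881 in the lungs labelled Ahr-KO. It rose with SuHx (3.09 ± 0.15, adjusted p = 1.96e-05) and was lower in lungs with the Ahr-KO label than under SuHx in WT (-3.78 ± 0.15, adjusted p = 4.39e-06), as the Ugt1a row and Gstp1 were. The merged row that opens with the carboxylesterases Ces1d and Ces1e fell (-1.80 ± 0.22, adjusted p = 0.00121), as did the monoamine oxidases Maob (-0.72 ± 0.11, adjusted p = 0.00407) and Maoa (-0.44 ± 0.10, adjusted p = 0.0186), the last of them not without normoxia 0 (0.0756) or WT SuHx 2 (0.0513).

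Of 12 other conjugation enzymes, Hpgds, a prostaglandin synthase of the glutathione transferase superfamily, rose (log2 fold change 0.98 ± 0.23, adjusted p = 0.0252) and the methyltransferase Inmt fell (-1.61 ± 0.27, adjusted p = 0.00556). Among 15 cofactor genes, Me1, which makes NADPH, rose (0.54 ± 0.13, adjusted p = 0.0287). Among 17 drug transporters, Slco4a1 rose (1.07 ± 0.27, adjusted p = 0.0316) and the peptide transporter Slc15a2 fell (-1.24 ± 0.16, adjusted p = 0.00179). Of the 19 receptors and regulators tested, 2 rose and 3 fell. Ahrr (7.28 ± 0.37, adjusted p = 2.01e-05) and Nfe2l2, the gene of NRF2 (0.42 ± 0.11, adjusted p = 0.0322), rose, while Ppara, a fatty acid sensor that drives Cyp4a genes (-0.82 ± 0.21, adjusted p = 0.0323), and Rxra, its partner (-0.34 ± 0.09, adjusted p = 0.0304), fell. The third fall was that of Ahr itself, at 5565, 3103 and 3950.3 in normoxia and 1996, 3073 and 1739.6 in WT SuHx (-0.89 ± 0.26, adjusted p = 0.0495 with limma). Several of these calls were lost when a single lung was left out. For Ahr these were normoxia 0 (0.156), normoxia 2 (0.0771), WT SuHx 0 (0.137), WT SuHx 2 (0.157), Ahr-KO 0 (0.0671) and Ahr-KO 1 (0.0721). Hpgds was lost without any normoxia or WT SuHx lung but normoxia 0 (0.0518 to 0.0805). Me1 (0.0736 to 0.101) needed normoxia 0 and 1 and WT SuHx 0 and 2, and Slco4a1 (0.0543 to 0.0972) normoxia 0 and 1 and WT SuHx 1 and 2. Nfe2l2 was lost without any lung but normoxia 1, Ahr-KO 0 and Ahr-KO 2 (0.0561 to 0.0704), Rxra without any but normoxia 0, Ahr-KO 0 and Ahr-KO 2 (0.0576 to 0.1), and Ppara without any but WT SuHx 1, Ahr-KO 1 and Ahr-KO 2 (0.0514 to 0.0948). In the lungs labelled Ahr-KO against WT SuHx, limma called 0 of these partners higher and 3 lower. Of all rows, 0.197% were higher and 0.302% lower. At an unadjusted p under 0.05, 5 partners were higher and 20 lower. The 3 called were Nqo1, Ahrr (-7.87 ± 0.37, adjusted p = 1.31e-05) and Nfe2l2 (-0.84 ± 0.11, adjusted p = 0.0103, but 0.0571 without Ahr-KO 0 and 0.0599 without Ahr-KO 1). In the ECs against lung, 14 partners were higher and 42 lower, where 26.1% of all rows were higher and 30.1% lower.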

How the data were processed

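Lung and EC RNA libraries were assigned to groups by the column names of the table, whose suffixes (0 to 2) differ from the replicate numbers of the sample titles (1 to 3), so no column was tied to 1 sample. The deposited values are a signal, read from the values as estimated reads that the authors divided by 1 factor per library: 1 read is worth 0.745 to 1.25, totals stand for 20 M to 28.6 M reads, and 79.9% to 81.7% of values above 0 lie within 0.05 of whole reads. The rn6 build and FastQC are named, without versions, per the submitters' processing notes. Aligner, counter, normalization and strand: not given in the sources used here. Merged rows, paralogs and antisense genes may share reads, and a value of 0 is not read as absence.

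For each fit, rows averaging 1 or more in its libraries entered limma 3.58.1 (R 4.3.3) as log2(signal + 1). Its moderated test was two-sided with an intensity trend, and p-values were adjusted by Benjamini-Hochberg over every row tested. A fit of the 9 lung libraries gave the 3 lung comparisons, and a fit of 6 libraries that of ECs with lung. A fold is the antilog of the log2 fold change, so the added 1 understates that of low rows. The code was tested on simulated data. The members, lists and tests were chosen with earlier results of these data known. Members called in WT SuHx against normoxia or in Ahr-KO against WT SuHx were named with every library, as were up to 6 called members in each direction for ECs and, of each partner list, up to 4 called rows with the smallest adjusted p or the 2 highest rows where none was called. Rows called only in Ahr-KO SuHx against normoxia, and others marked so, were chosen after their values were seen. Alternatives were limma without trend, quantile normalization, other filters on low rows (none, or a mean of 5), a pseudocount of 0.1, all 12 libraries or only the groups compared, a replicate block, each library left out, and normoxia 2 and Ahr-KO 2 left out together. Chosen after seeing the data were leaving out WT SuHx 2 and Ahr-KO 2, and all 3 lung libraries of suffix 2. The totals include 1 member that is not reported here by name or drawn.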

Additional observations from a re-analysis of the deposited data

How the results depend on the processing

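Of 55 member and comparison pairs rerun (45 of them called), none changed the sign of its log2 fold change, while other printed values were not rerun, and calls were lost in those with adjusted p near the threshold. Counts that moved by over 1.5 times were as follows. In WT SuHx against normoxia, 3 members higher and 15 lower became 8 higher without WT SuHx 1, and 23 lower without all 3 lung libraries of suffix 2. Over all rows, 1079 higher became 1082 without WT SuHx 1, and 973 lower became 1680 without the suffix 2 lungs. Leaving out 1 library gave 2 to 8 members higher and 10 to 18 lower. In Ahr-KO SuHx against WT SuHx it gave 0 higher throughout and 2 to 3 lower. In Ahr-KO SuHx against normoxia, 0 higher became 1 with a pseudocount of 0.1 and 1 without the suffix 2 lungs. Over all rows, 906 higher became 894 and 1325 there. The 14 members lower became 9 with only the groups compared, 7 without normoxia 0, 6 without normoxia 1, 9 without Ahr-KO 0 and 7 without Ahr-KO 1. The range was 6 to 15 when leaving out 1 library. Over all rows, 579 lower became 397 with only the groups compared, then 217, 272, 341 and 207 in the same order. In ECs against lung, 4 members higher became 8 with quantile normalization, 1 without normoxia 0, 0 without normoxia 1, 1 without EC 0 and 1 without EC 1 (0 to 4 leaving out 1 library), and the 29 lower ranged from 27 to 31. Over all rows, 3969 higher became 4140 with quantile normalization, then 3425, 3678, 3476 and 3362 in the same order. Leaving out a library also leaves fewer samples; beyond that the cause was not tested.

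With the column suffix as a replicate block, members higher and lower numbered 4 and 16 in WT SuHx against normoxia, 0 and 3 in Ahr-KO against WT SuHx, 0 and 16 in Ahr-KO SuHx against normoxia, and 6 and 30 in ECs against lung. It ended the calls of Cyp2c23 in Ahr-KO SuHx against normoxia (adjusted p = 0.052) and of Cyp2ab1 in ECs (0.0856), and no other of the 45 calls. Over all rows of WT SuHx against normoxia it gave 1546 higher and 1839 lower, where 1079 and 973 were called without it. In Ahr-KO SuHx against WT SuHx it gave 32 and 50 (30 and 46 without it). In Ahr-KO SuHx against normoxia it gave 1119 and 1052 (906 and 579 without it). In ECs against lung it gave 4014 and 4545 (3969 and 4570 without it). Deviations of same-suffix libraries correlated at -0.0327 to 0.129, -0.0188 to 0.234, 0.0965 to 0.237 and 0.0174 to 0.118 in the 4 comparisons. Every library correlated best with its own suffix in Ahr-KO SuHx against normoxia alone. These correlations are low, and the check does not settle whether libraries of a suffix share an effect.

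Members with a mean under 10 (20 of 73) rest on few reads, and none of them was called in a lung comparison at this depth. With 3 libraries a group, differences under the spread between libraries cannot be seen, and a row that missed the threshold is not shown to be equal.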
